A study of Homo sapiens with 6 samples.

Results

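The EGR transcription factors EGR1, EGR2, EGR3 and EGR4 and the corepressors NAB1 and NAB2 were followed in HEK293 cells in which phosphatidylinositol 4-kinase alpha had been inhibited. The 6 genes were taken by symbol from the 63140 genes of the deposited count table, 1 row each. HEK293 is an established human line of embryonic kidney origin. The GSK-A1 group comprised 3 cultures given 100 nM GSK-A1, an inhibitor of the PI4KA kinase, for 24 h at confluence, and the DMSO group comprised 3 cultures given the solvent dimethyl sulfoxide for 24 h. The labels name no genetic change in either group, and 1 cell line, 1 dose and 1 time were sampled. The labels name the libraries biological replicates without saying how the cultures were separated, so p-values measure the spread between these 6 libraries.

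EGR proteins are zinc finger transcription factors that recognise a GC-rich DNA site. They belong to the immediate early genes, which growth factors, calcium and the ERK kinase pathway switch on within minutes and without new protein synthesis. Ternary complexes of serum response factor (SRF) and ETS-type partners such as ELK1, bound at CArG boxes, are known for driving EGR1. NAB1 and NAB2 bind EGR1, EGR2 and EGR3 and repress their activity, in part by recruiting the NuRD chromatin remodelling complex. NAB2 is itself known as an EGR target, which closes a negative feedback loop.

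Total counts per library ranged from 33040178 to 47777233, and all libraries carried the same lane label. Pearson correlations of log2 CPM across the 16754 genes tested were 0.997 between DMSO libraries and 0.997 between GSK-A1 replicates 1 and 3, against 0.995 and 0.994 for GSK-A1 replicate 2 with those 2 libraries. CPM are counts relative to library size, scaled with TMM factors (trimmed mean of M values). Of 9 HEK293 markers, 6 had a mean of at least 1 CPM, NEFL, VIM, KRT8, KRT18, CDH2 and PAX2, while NEFM, INA and TUBB3 were lower. Their summed level was 2115 to 2191 CPM with DMSO and 2263 to 2460 CPM with GSK-A1. None of the 3 endothelial, 4 haematopoietic and 3 Schwann cell markers reached a mean of 1 CPM, although none was at 0 in every library. Among 4 fibroblast markers COL1A1 and COL3A1 did, with the list's sum at 16.4 to 17.6 CPM with DMSO and 10.2 to 12.6 CPM with GSK-A1, and among 3 neuronal markers SYT1 and SNAP25 did, with sums of 18.2 to 20.9 and 17.9 to 20.6 CPM. The part of these markers in the results was not tested.

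GSK-A1 was compared with DMSO to ask which members of the family differed after 24 h of PI4KA inhibition. EGR1 and EGR3 rose several-fold, NAB2 rose 1.25-fold, and EGR2 and NAB1 did not pass the test. Of the 6 members, 5 passed the filter on low counts and 3 were called, all higher, at an edgeR adjusted p under 0.05. Over all genes tested, 22.9% were called, 12.0% as higher and 10.9% as lower. Under upper-quartile scaling 33.3% of the calls were higher, against 52.3% in the main fit, and the members' calls were the same under both. In 4 of the 5 tested members the 3 GSK-A1 libraries lay apart from the 3 DMSO libraries in CPM, a separation that 40.5% of all tested genes showed. In bulk RNA, a change in the number of cells that make a transcript and a change in the amount per cell cannot be told apart.

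EGR1 (ENSG00000120738) lies at chr5:138465490-138469315 on the plus strand (GRCh38, GENCODE 29), and its protein is the family's best studied activator. Replicates 1 to 3 of DMSO gave 11.4, 10.1 and 12.1 CPM, and those of GSK-A1 gave 51.6, 55.2 and 49.4 CPM. The groups lay far apart, with the lowest GSK-A1 library more than 4 times the highest DMSO library. The mean went from 11.2 ± 1.0 to 52.1 ± 2.9 CPM (SD, n = 3), a fold change of 4.67 with a 95% interval of 4.25 to 5.13. On the log2 scale the rise was 2.22 with an SE of 0.06 (edgeR adjusted p = 4.77e-13). EGR1 ranked 8 by size of rise and 3 by p-value among the 16754 genes tested. The counts behind it were 1407 with DMSO and 6072 with GSK-A1.

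Promoter sequence was read for the members because some rose and others did not pass the test. RefSeq windows (GRCh38.p14) ran from 250 bases before to 50 bases after an annotated transcript start. They were read for 5 of the 6 members, with 9 windows. EGR3 was not searched, so the motif counts and comparisons do not cover it. The windows of EGR1 and of the third start of EGR2 are shown for their CArG boxes, with the 250 bases before the start written 5′ to 3′ on the gene's strand and the boxes in capitals. The EGR1 stretch is chr5:138465229-138465478 (plus strand) and the EGR2 stretch is chr10:62816367-62816616 (minus strand).
EGR1: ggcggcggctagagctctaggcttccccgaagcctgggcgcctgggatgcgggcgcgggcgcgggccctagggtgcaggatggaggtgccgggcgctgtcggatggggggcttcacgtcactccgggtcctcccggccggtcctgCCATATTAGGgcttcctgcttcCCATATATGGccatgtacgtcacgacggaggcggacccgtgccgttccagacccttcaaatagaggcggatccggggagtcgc
EGR2: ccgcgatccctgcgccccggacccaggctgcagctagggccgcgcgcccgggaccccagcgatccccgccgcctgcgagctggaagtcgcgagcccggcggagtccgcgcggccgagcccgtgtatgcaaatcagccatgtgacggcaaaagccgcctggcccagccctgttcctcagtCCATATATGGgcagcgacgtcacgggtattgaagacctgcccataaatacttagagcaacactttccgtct

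The EGR1 window held 2 CArG boxes, at positions -105 and -83 from the start, and the EGR2 window held 1, at position -71, each counted to the first base of the match. CArG boxes occurred in 1.29% of the 35116 promoter windows of the RefSeq table. The CRE motif TGACG, the core that CREB and ATF1 recognise, matched 2 times in each of these windows, and occurred in 24.6% of all windows. EGR4 also held it 2 times and each NAB1 window 1 time, and neither gene had a CArG box. An ETS motif was searched only as CCGGAA, a form present in 17.2% of all windows, and matched in none of the 9. Other forms of ETS site were not searched, so their absence is not shown. These are matches of letters on both strands and show no binding.

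The EGR site was searched as GCGNGGGCG on both strands and was present in 9.43% of all windows. It was found in EGR1, in the window of the second EGR2 start, in the windows of the first and second NAB1 starts and in NAB2, and not in EGR4. A stretch of 25 bases around it is shown for each corepressor, with the site in capitals, because the feedback onto NAB2 is described through such sites. The NAB1 stretch is chr2:190648900-190648924 and the NAB2 stretch is chr12:57089044-57089068, both written on the plus strand.
NAB1: tcggccgcGCGTGGGCGggagccgg
NAB2: tgcgtcctGCGGGGGCGgaggcgcg

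NAB1, which was not called, held 3 matches in the window of its first start, the one shown at position 14 among them. The window of its second start shares part of its sequence with the first, and its 4 matches include those 3. Some of the NAB1 matches also overlap each other. NAB2, which rose, held 1 match, at position -62. Matches were thus present in members that were called and in members that were not. The NAB2 start in RefSeq lies inside the first exon of GENCODE 29, which covers 220 of the 250 bases before it.

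**Figure D1:**
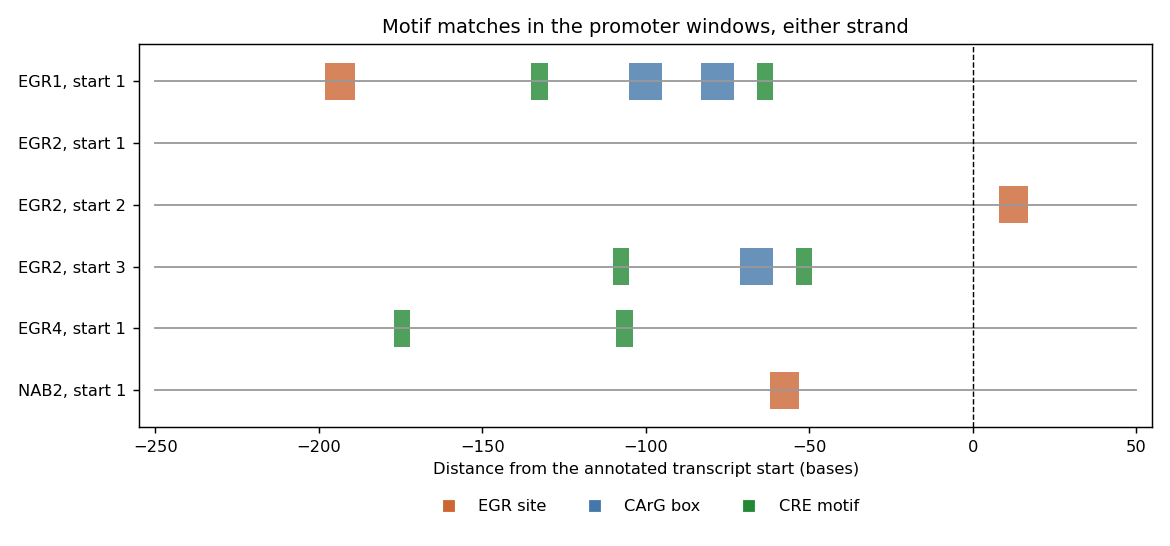
Matches of the EGR site (orange), the CArG box (blue) and the CRE motif (green) in the 6 promoter windows of EGR1, EGR2, EGR4 and NAB2, drawn by distance in bases from the annotated transcript start (dashed line). The NAB1 windows, with 3, 4 and 0 EGR sites, the 3 being also among the 4, are not drawn. Among the rows drawn, CArG boxes appear only in those of EGR1 (2 boxes) and of the third EGR2 start (1 box), and EGR sites in the EGR1, EGR2 and NAB2 rows.

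EGR3 (ENSG00000179388), at chr8:22687659-22693302 on the minus strand, was the other strong riser. EGR3 is an activator known from neurons, muscle spindles and lymphocytes. Its levels were 1.63, 1.98 and 2.17 CPM for replicates 1 to 3 of DMSO, against 6.11, 6.74 and 6.32 CPM for those of GSK-A1. Every GSK-A1 library was above every DMSO library, with no overlap. The mean went from 1.93 ± 0.28 to 6.39 ± 0.32 CPM (SD, n = 3), a fold change of 3.35 with a 95% interval of 2.83 to 3.97. As a log2 value the rise was 1.75 with an SE of 0.12 (edgeR adjusted p = 3.15e-08), which ranked 16 by size. With 240 counts in all for DMSO and 743 for GSK-A1, the sampling of reads alone gave a standard error of 0.107 on that scale, beside the fitted one of 0.115.

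EGR2 (ENSG00000122877), at chr10:62811996-62919900 on the minus strand, is known as the driver of hindbrain segmentation and of myelination by Schwann cells. It was near the lower limit of the measurement, with 18, 31 and 17 counts in DMSO replicates 1 to 3 and 36, 33 and 27 counts in GSK-A1 replicates 1 to 3. In CPM these were 0.375, 0.681 and 0.513 against 0.772, 0.967 and 0.749. The groups did not overlap, but DMSO replicate 2 lay close to GSK-A1 replicate 3. EGR2 differed by 0.66 on the log2 scale with an SE of 0.25 and was not called (edgeR adjusted p = 0.0671); the unadjusted 95% interval of the fold ran from 1.095 to 2.27. Without DMSO replicate 2 the log2 fold change was 0.93 and passed the threshold (edgeR adjusted p = 0.0446), and without DMSO replicate 1 it was 0.43 (edgeR adjusted p = 0.289). Read sampling alone gave a standard error of 0.231.

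EGR4 (ENSG00000135625), at chr2:73290929-73293705 on the minus strand, had 1, 0 and 1 counts in DMSO replicates 1 to 3 and 0, 1 and 0 counts in GSK-A1 replicates 1 to 3. It failed the filter and was not tested. A level of 3 counts in the shallowest library corresponds to 0.0908 CPM, so EGR4 mRNA was not detectable above that limit in either group, and no fold change is given. EGR4 is otherwise known from neurons and germ cells.

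**Figure D2:**
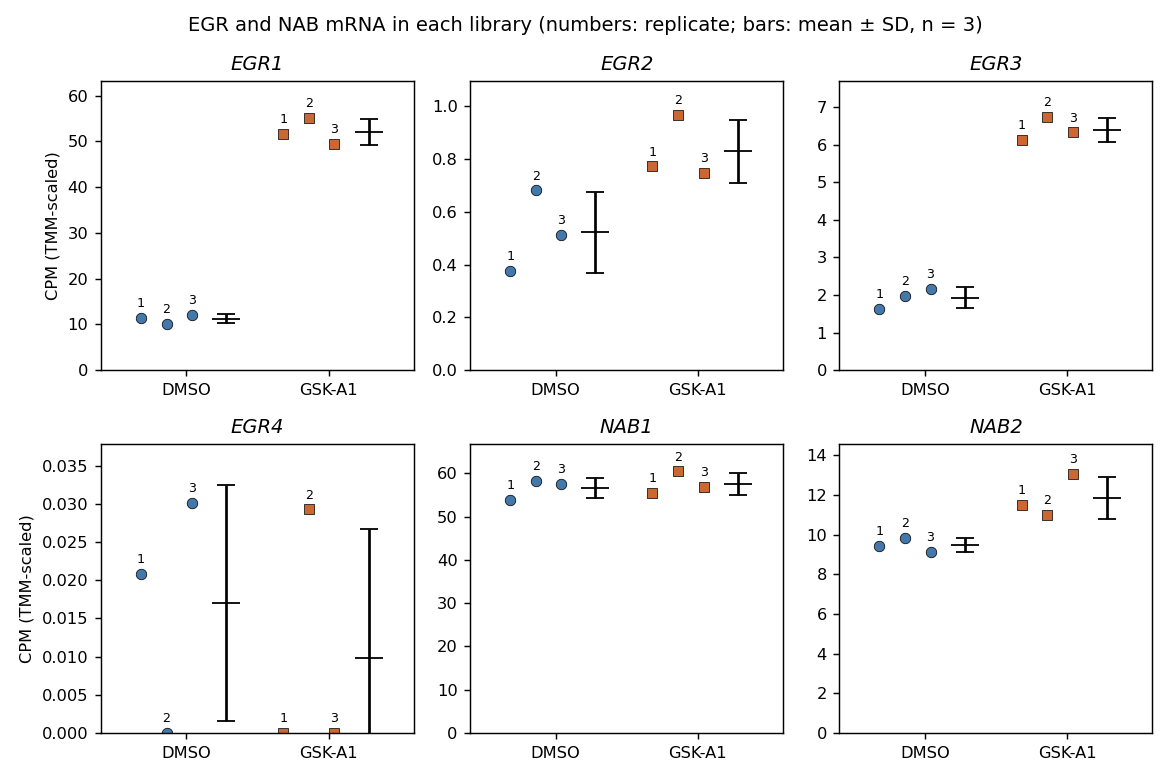
Level of each member in CPM (vertical axis, from 0, its own scale in each panel) in the 3 DMSO libraries (blue circles) and the 3 GSK-A1 libraries (orange squares), numbered by replicate, with the group mean ± SD beside them. EGR1 and EGR3 lie far above their DMSO libraries with GSK-A1, NAB2 lies slightly above, NAB1 overlaps, and EGR4 has 0 or 1 count per library.

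NAB2 (ENSG00000166886) is at chr12:57088894-57095476 on the plus strand. With DMSO, replicates 1 to 3 were at 9.45, 9.83 and 9.14 CPM, and with GSK-A1 they were at 11.5, 11.01 and 13.1 CPM. All GSK-A1 libraries were above all DMSO libraries, with GSK-A1 replicate 3 the highest. The mean went from 9.47 ± 0.34 to 11.9 ± 1.1 CPM (SD, n = 3), a fold change of 1.25 with a 95% interval of 1.12 to 1.40. In log2 units NAB2 rose by 0.32 with an SE of 0.08 (edgeR adjusted p = 0.00644). By size of rise NAB2 ranked 914, in contrast to EGR1 and EGR3 among the first 16.

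NAB1 (ENSG00000138386), the other corepressor, is at chr2:190646746-190692766 on the plus strand. DMSO replicates 1 to 3 gave 53.9, 58.2 and 57.5 CPM, and GSK-A1 replicates 1 to 3 gave 55.4, 60.4 and 56.8 CPM. The groups overlapped. The difference of 0.03 on the log2 scale was smaller than its SE of 0.05 (edgeR adjusted p = 0.745), and the 95% interval of the fold ran from 0.9497 to 1.09. Its sign turned under upper-quartile scaling (-0.02) and without DMSO replicate 1 (-0.0094) or GSK-A1 replicate 2 (-0.0059). NAB1 was the most deeply counted member, with 7140 counts for DMSO and 6695 for GSK-A1.

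Without GSK-A1 replicate 2, the library that stood apart, EGR1 rose by 2.19, EGR3 by 1.71 and NAB2 by 0.37 on the log2 scale, and EGR2 gave 0.55 with no call (edgeR adjusted p = 0.125). The calls for EGR1, EGR3 and NAB2 stood in each of 15 other settings, with log2 fold changes of 2.15 to 2.27, 1.63 to 1.83 and 0.25 to 0.37.

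**Figure D3:**
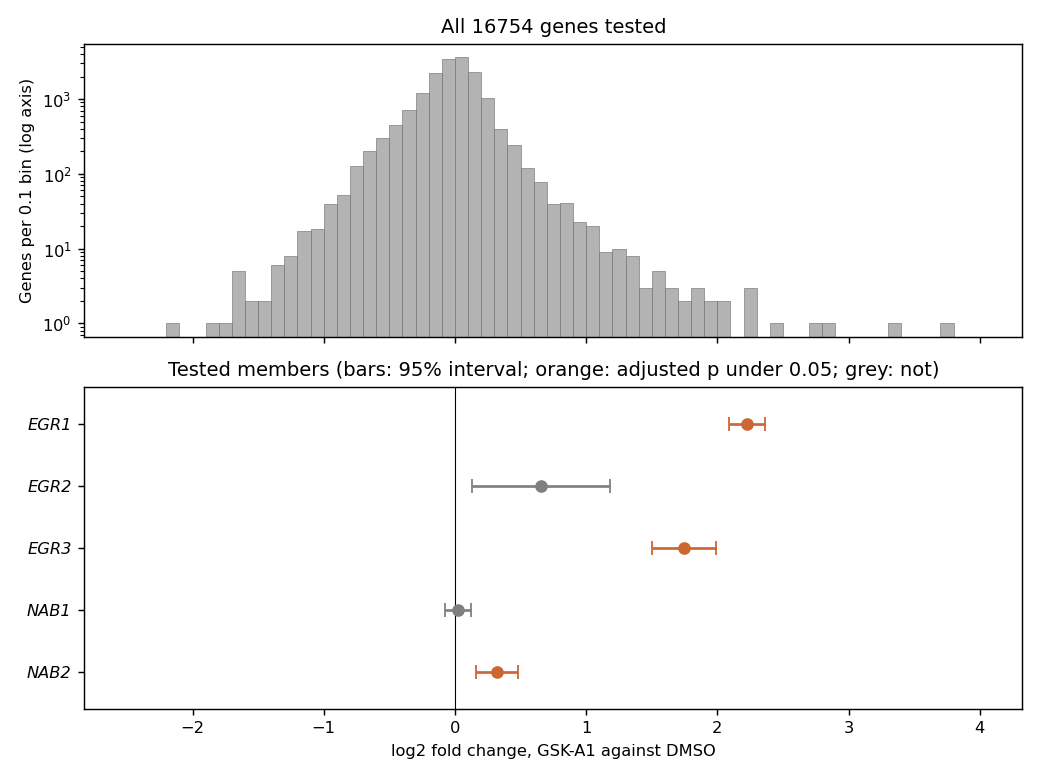
Upper panel, the number of genes (log axis) by log2 fold change for the 16754 genes tested; lower panel, the log2 fold change of the 5 tested members on the same horizontal axis, with 95% intervals, orange where called and grey where not. EGR1 at 2.22 and EGR3 at 1.75 lie in the sparse right tail, NAB2 at 0.32 on the flank, and NAB1 at 0.03 near 0.

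To compare levels between members, CPM were divided by the length of the longest annotated transcript in kilobases. With DMSO, NAB1 was the most abundant at 12.98 ± 0.53 CPM per kilobase (SD, n = 3). EGR1 and NAB2 followed at 3.57 ± 0.31 and 3.49 ± 0.13 CPM per kilobase and did not differ beyond their spread. EGR3 (0.444 ± 0.064), EGR2 (0.176 ± 0.052) and EGR4 (0.0072 ± 0.0065) came after them in CPM per kilobase. With GSK-A1, EGR1 at 16.6 ± 0.9 CPM per kilobase was above NAB1 at 13.2 ± 0.6, and the libraries of these 2 genes did not overlap, at 15.8 to 17.6 against 12.7 to 13.9. This order depends on the transcript length used. In CPM without the division, NAB1 was above EGR1 with GSK-A1, at 55.4 to 60.4 against 49.4 to 55.2. NAB2 then stood at 4.38 ± 0.39, EGR3 at 1.47 ± 0.07 and EGR2 at 0.279 ± 0.040 CPM per kilobase. Summed over members, the EGR genes went from 4.196 ± 0.313 to 18.4 ± 1.0 CPM per kilobase, and the NAB genes from 16.5 ± 0.6 to 17.6 ± 0.5. The EGR genes together were thus below the NAB genes in every DMSO library. With GSK-A1 the sums stood at 18.1, 19.5 and 17.5 CPM per kilobase for EGR against 17.0, 17.9 and 17.9 for NAB in replicates 1 to 3, so that EGR was above NAB in replicates 1 and 2 and below it in replicate 3.

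The balance within and between the families was also read as ratios of counts inside each library, which do not depend on the scaling between libraries. The log2 ratio of summed NAB to summed EGR counts was 2.24, 2.41 and 2.17 in DMSO replicates 1 to 3 and 0.19, 0.18 and 0.31 in GSK-A1 replicates 1 to 3. These counts were not divided by transcript length, and NAB was above EGR in every library. The difference was -2.05, and the groups were well apart (exact two-sided permutation p = 0.1, the smallest that 3 against 3 libraries allow). EGR1 made up 84.9, 79.2 and 81.6% of the EGR counts in DMSO replicates 1 to 3 and 88.2, 87.7 and 87.5% in GSK-A1 replicates 1 to 3. The mean share was higher by 5.89 percentage points with GSK-A1 (exact permutation p = 0.1), and DMSO replicate 2 was the lowest library. NAB2 made up 14.9, 14.4 and 13.7% of the NAB counts in DMSO replicates 1 to 3 and 17.2, 15.4 and 18.7% in GSK-A1 replicates 1 to 3. That share was higher by 2.75 points (exact permutation p = 0.1), with GSK-A1 replicate 2 nearest to the DMSO libraries. Over fits that left out 1 library, the NAB2 difference ran from 1.96 points without GSK-A1 replicate 3 to 3.597 points without GSK-A1 replicate 2, and the EGR1 difference from 4.53 points without DMSO replicate 2 to 7.39 points without DMSO replicate 1. Without GSK-A1 replicate 2 the EGR1 difference was 5.94 points and the log2 ratio differed by -2.02. The widest exact Clopper-Pearson 95% interval of a share in 1 library was 77.9 to 85.0% for EGR1, in DMSO replicate 3, and 17.2 to 20.3% for NAB2, in GSK-A1 replicate 3; they cover counting error only.

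**Figure D4:**
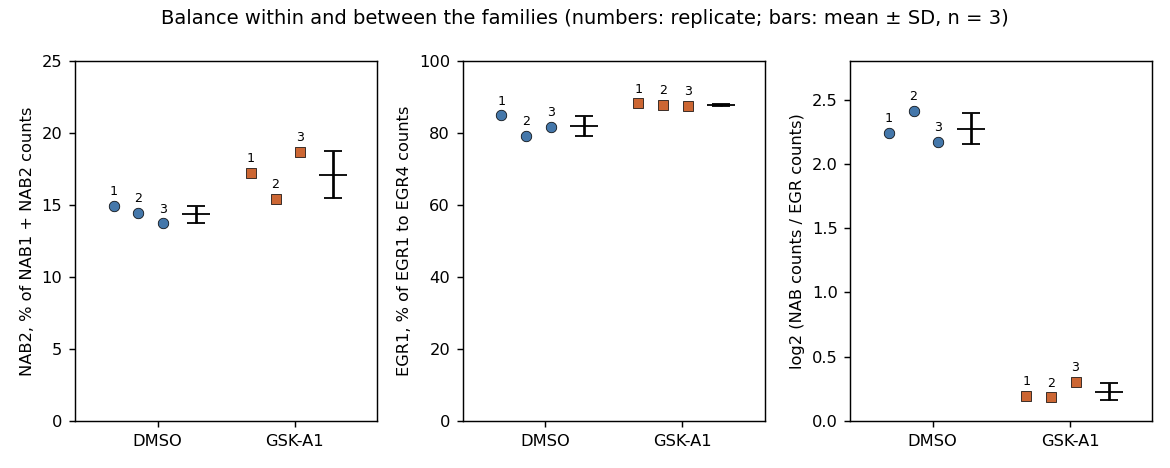
The 3 ratios of counts within each library, the percentage of NAB counts from NAB2, the percentage of EGR counts from EGR1, and the log2 ratio of NAB to EGR counts, for DMSO (blue circles) and GSK-A1 (orange squares), numbered by replicate, with mean ± SD. The groups do not overlap in any of the 3, and the log2 ratio shows the widest gap, from 2.28 to 0.23 in the mean.

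Reads from copies or overlapping genes could enter a member's count only to a small extent by the annotation. No stretch of 50 bases of the longest EGR1, EGR2, EGR3, EGR4 or NAB2 transcript occurred in another gene's transcripts, and 0.719% of those of NAB1 did. STAT6, transcribed from the other strand, overlaps 2.29% of the NAB2 exons. STAT6 stood at 1.64 ± 0.38 CPM with DMSO and 1.78 ± 0.05 CPM with GSK-A1 (log2 fold change 0.12 ± 0.17, edgeR adjusted p = 0.647), well under NAB2. For NAB1 the larger of 2 noncoding antisense overlaps was 3.81% of the exons. For EGR3 it was 3.38%, and that noncoding gene had 0 CPM in both groups. The strand setting of the counting is not given in the sources used here.

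The protein-coding neighbours on each side of EGR1 were not called, with log2 fold changes of -0.10 ± 0.04 for REEP2 (edgeR adjusted p = 0.0761) and 0.09 ± 0.04 for ETF1 (0.129). Neither were BIN3 next to EGR3, at -0.03 ± 0.05 (edgeR adjusted p = 0.770), nor ADO and NRBF2 beside EGR2, at 0.08 ± 0.04 (0.211) and 0.10 ± 0.06 (0.205). Around NAB2, NEMP1, a gene 831 bases away on the other strand, rose by 0.16 ± 0.04 (edgeR adjusted p = 0.00773), while LRP1 fell by 0.58 ± 0.06 (edgeR adjusted p = 8.32e-06). NEMP2, beside NAB1, was not called (-0.11 ± 0.07, edgeR adjusted p = 0.306).

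Genes whose pattern was most like that of a member were found by the root mean square distance over the 6 libraries, with each gene's log2 CPM taken relative to its own DMSO mean, among 12816 genes with a symbol and a mean of at least 1 CPM. The 5 nearest to EGR1 were MAFF (distance 0.08 on the log2 scale), TNFRSF12A (0.14), C11orf96 (0.18), RHOB (0.22) and FOS (0.28). MAFF encodes a small MAF transcription factor, TNFRSF12A the receptor of the cytokine TWEAK, RHOB a small GTPase and FOS a subunit of AP-1. MAFF went from 1.32 ± 0.21 to 6.46 ± 0.56 CPM and FOS from 3.62 ± 0.26 to 13.1 ± 0.3 CPM. C11orf96 shares 41.9% of its exonic length with another gene on its strand, so its value is uncertain. The nearest to EGR3 were FOS (0.11), ETV4 (0.15), an ETS factor, and ARC (0.20), which is also on the list of EGR targets. ETV4 went from 12.7 ± 1.1 to 41.8 ± 1.3 CPM, so at higher levels than EGR3 itself. NAB2 was nearest to DCUN1D2 (0.03), AGO3 (0.04) and GPR75 (0.05), of which GPR75 was not called (edgeR adjusted p = 0.101). EGR2 was nearest to SPX (0.15), TNFRSF9 (0.19) and the MATR3 row ENSG00000280987 (0.19), of which 90.7% of the exonic length lies under other genes on its strand. NAB1 was nearest to PWWP2A (0.0086), ST7L (0.01) and FBXL4 (0.01), none of them called, and 40.5% of the ST7L exons are overlapped from the other strand. The distance describes shape and size of the difference in these libraries only.

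Known targets of EGR factors were then read from a list of 39 genes, of which 31 were tested. Of these, 11 rose, 2 fell and 18 were not called, 41.9% called against 22.9% of all genes. The list was chosen with earlier results of these data known, so its share is not an independent test of EGR activity. The median log2 fold change was 0.12, against -0.01 over all genes, and 23 of the 31 were above 0. ARC, a synaptic protein gene known to be driven by EGR factors in neurons, stood at 2.33 ± 0.20 CPM with DMSO and 7.07 ± 0.45 CPM with GSK-A1 (SD, n = 3; log2 fold change 1.59 ± 0.10, edgeR adjusted p = 3.15e-08). ATF3, a stress-induced transcription factor, rose from 89.8 ± 1.7 to 158 ± 6 CPM (0.82 ± 0.04), and NDRG1 from 313 ± 6 to 548 ± 8 CPM (0.81 ± 0.03). ATF3 and NDRG1 also belong to stress and hypoxia programmes. Which factors raised ARC, ATF3 and NDRG1 here was not tested.

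The other risers of the target list, named after their values were seen, were CD44, PDGFB, PLAU, CDKN1A, HPSE, ACHE, ID2 and ID3. PDGFB, a growth factor chain, went from 0.576 ± 0.0999 to 1.26 ± 0.08 CPM (log2 fold change 1.12 ± 0.20), and CD44, a hyaluronan receptor, from 3.68 ± 0.44 to 6.73 ± 0.07 CPM (0.86 ± 0.10). CDKN1A, the cell cycle inhibitor p21, went from 79.1 ± 2.4 to 109.9 ± 2.3 CPM (0.47 ± 0.04). For PLAU (1.12 ± 0.26) 31.1% of the exons are overlapped from the other strand, so its value is uncertain. With DMSO, PLAU was also low at 0.340 ± 0.072 CPM, and PDGFB was near the DMSO level of EGR2 (0.523 ± 0.153 CPM). The values of PLAU and PDGFB thus rest on few reads. Of the 2 that fell, FN1, the gene of the matrix protein fibronectin, went from 75.3 ± 1.8 to 67.6 ± 1.6 CPM (-0.16 ± 0.04). Classical targets such as TGFB1 (0.09 ± 0.06, edgeR adjusted p = 0.263), VEGFA (0.08 ± 0.06, 0.4) and PDGFA (0.16 ± 0.08, 0.147) were not called, and ICAM1 and TNF were among the 8 too low to test.

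**Figure D5:**
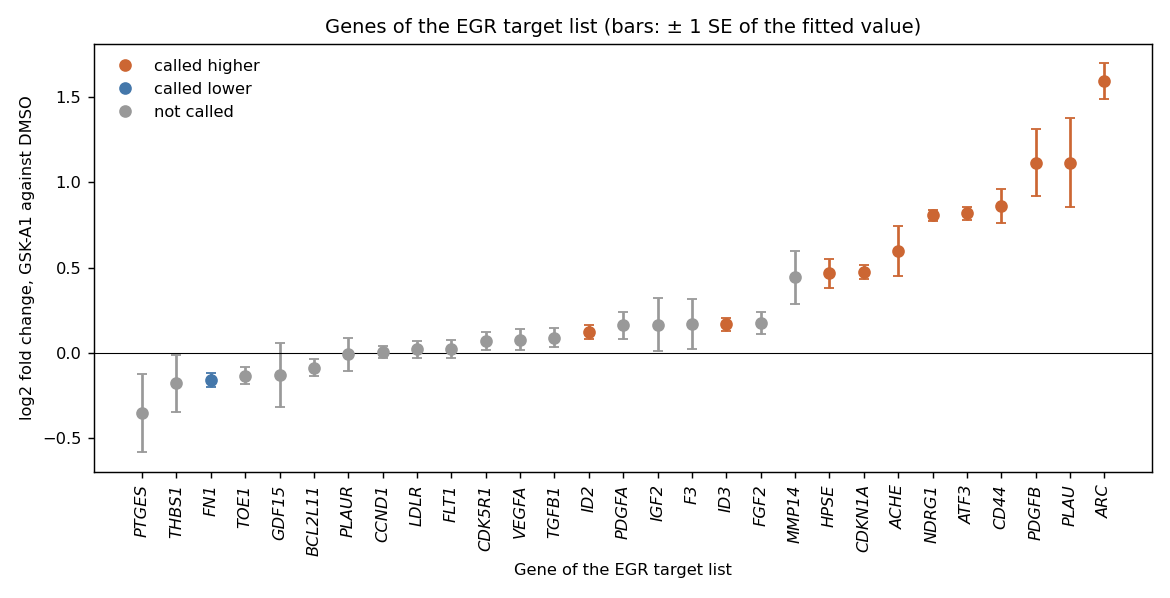
Log2 fold change of 29 of the 31 tested genes of the EGR target list, ordered by value, with bars of 1 SE, orange where called higher, blue where called lower and grey where not called. The list spans -0.35 (PTGES) to 1.59 (ARC), with 11 genes called higher and FN1 called lower.

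A list of hindbrain and myelin genes linked with EGR2, not all of them its targets, gave 7 tested members of 11. None rose, and 2 fell, or 28.6% called against 22.9% of all genes, which is near that background. They were HOXA2 from 3.10 ± 0.45 to 2.07 ± 0.30 CPM (-0.57 ± 0.14 in log2, edgeR adjusted p = 0.00961) and EPHA4 from 32.8 ± 1.4 to 28.01 ± 1.58 CPM (-0.23 ± 0.06, edgeR adjusted p = 0.00640). The median was 0.0094. The 2 calls became 1 without any single DMSO library and 0 without GSK-A1 replicate 1. The myelin genes MAG and GJB1 and the Schwann cell factor SOX10 were among the 4 too low to test.

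All of 18 genes that act upstream of EGR promoters were tested. Of them, 7 rose, 3 fell and 8 were not called, or 55.6% called against 22.9% of all genes. The median log2 fold change was 0.05. The 22.9% was not matched for expression level, on which the power to call a gene depends. SRF, the CArG box factor, stood at 105.9 ± 2.6 CPM with DMSO and 104 ± 6 CPM with GSK-A1 (-0.02 ± 0.04, edgeR adjusted p = 0.761). Its ETS partners differed from one another, ELK4 rising from 59.1 ± 2.5 to 77.5 ± 1.8 CPM (0.39 ± 0.04, edgeR adjusted p = 1.45e-05), ELK1 falling by 0.19 ± 0.04 (0.00300) and ELK3 at 0.0051 ± 0.0437 (0.9495). The kinases RPS6KA3 and RPS6KA4 went opposite ways, at 0.24 ± 0.04 (edgeR adjusted p = 9.14e-04) and -0.25 ± 0.06 (0.00765). CREM rose by 0.19 ± 0.05 and MAPK3 fell by 0.14 ± 0.05. The 10 calls became 6 under upper-quartile scaling (3 higher, 3 lower), 6 without DMSO replicate 1, and 5 when DMSO replicate 2 or 3 or GSK-A1 replicate 1 was left out.

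The 15 subunits of the NuRD complex, the partner of NAB proteins, gave 4 higher, 4 lower and 7 not called, or 53.3% called against 22.9% of all genes, and a median of -0.07. The split depended on the scaling, with 2 higher and 5 lower under upper-quartile factors and 3 higher and 5 lower with library totals alone. For this list too the 22.9% was not matched for expression level. RBBP7, a histone-binding subunit, rose from 736 ± 34 to 888 ± 26 CPM (0.27 ± 0.04 in log2, edgeR adjusted p = 9.56e-05), CHD5 by 0.58 ± 0.11 and MBD2 by 0.14 ± 0.04. MTA2 fell by 0.19 ± 0.04, CHD3 by 0.18 ± 0.04 and the deacetylase HDAC1 by 0.16 ± 0.03. The remodelling ATPase CHD4, which NAB2 binds, was at 29.9 ± 1.7 and 28.5 ± 1.0 CPM (-0.07 ± 0.05, edgeR adjusted p = 0.402), but 46.9% of its exonic length lies under another gene on its strand, so its count may be incomplete. The 8 calls became 5 without DMSO replicate 1, 2 or 3. Among 6 tested zinc finger factors of other families that bind GC-rich sites, SP1 rose (0.17 ± 0.04, edgeR adjusted p = 0.00300) and SP3 (-0.0021 ± 0.04, 0.979) and MAZ (-0.07 ± 0.03, 0.160) were not called. WT1, whose protein shares the EGR site, was too low to test.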

How the data were processed

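RNA from 3 DMSO and 3 GSK-A1 cultures was sequenced, and the deposited values are unnormalized counts of reads per gene, 1 column for each library (33040178 to 47777233 in all). Per the submitters' processing notes, which give no roles, the tools were cutadapt 5.1, STAR 2.7.11b, featureCounts from Subread 2.1.1 and DESeq2 1.38.0, with build GRCh38.p13. The annotation release, strand setting and filters are not given in the sources used here. Per the labels' protocols, libraries came from total RNA with a stranded kit. Coordinates are from GENCODE 29 (GRCh38).

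Genes were kept by filterByExpr (smallest count 10, smallest total 15) and tested with the quasi-likelihood F test of edgeR 4.0.16 in R 4.3.3, with TMM factors, robust dispersions and Benjamini-Hochberg adjustment over all 16754 genes. Standard errors are the coefficient divided by the square root of F. The common biological coefficient of variation was 4.06%. Distances used log2 CPM with a prior count of 2. The fit was tested on simulated data.

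The members and gene lists were chosen with earlier results of these data known, and list counts have no set test. Named genes were all members, up to 3 called genes per list and direction with the smallest p, the genes nearest to each member, and overlapping or neighbouring genes. Further list genes were named outside this rule. Among them were SRF, ELK3, CHD4, SP3, MAZ, TGFB1, VEGFA, PDGFA and the other risers of the target list. Alternatives were other scalings, filters, a replicate block, DESeq2 1.42.0, limma-voom from limma 3.58.1, a threshold of 0.01 and fits without each library. Some genes of the lists, 1 neighbouring gene and the positions of some promoter matches are not reported here.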

Additional observations from a re-analysis of the deposited data

How the results depend on the processing

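EGR1, EGR3 and NAB2 kept their direction and call in 15 alternatives each, with adjusted p-values up to 5.88e-09, 8.40e-06 and 0.0382. EGR2 was called with the replicate block (log2 fold change 0.69, edgeR adjusted p = 0.0436), and over fits without 1 library its value ranged from 0.43 to 0.93. Equal replicate numbers did not deviate together (correlations across genes of 0.0109, 0.0190 and 0.0323), so the block pairs libraries by number only; it gave 4127 called genes against 3835. NAB1 turned to -0.016 under upper-quartile factors and ranged from -0.0094 to 0.06 without 1 library. Called genes numbered 1871 at an adjusted p under 0.01 and 2163 to 4890 without 1 library (2163, 2213 and 2206 without DMSO replicates 1, 2 and 3). Under upper-quartile factors the upstream list had 6 calls and the list of other zinc finger factors 2, against 10 and 1; at 0.01 the upstream and NuRD lists had 5 each. Without 1 library the upstream list had 5 to 12 calls, the NuRD list 5 to 9 and the EGR2 hindbrain and myelin list 0 to 2. The cause was not tested. The share of calls that were higher was 33.3% with upper-quartile factors and 62.6% with DESeq2 (2941 calls), against 52.3%. EGR4, with at most 1 count in a library, is given no fold, EGR2 failed the filter of 1 CPM in 3 libraries, and the ratios of counts kept their direction in every fit. Reads limit EGR2 and EGR4.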
